A study of Mus musculus with 26 samples.

Results

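The genes described here are the mouse zinc finger genes whose symbols run from Zfp930 to Zfp995. Every gene name made of Zfp9 and 2 further digits was taken if it had at least 10 counts over all libraries. This gave 62 genes of the 55291 in the count table, from 64 names that matched. Zfp935, with 2 counts in total, and Zfp957, with 8, were left out. The numbers in these symbols are names and not a measured property, so no value of these libraries chose the genes apart from the count minimum.

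Proteins of this kind join an array of C2H2 zinc fingers, which reads DNA sequence, to a KRAB domain, which recruits the corepressor TRIM28. TRIM28 in turn brings the histone H3 lysine 9 methyltransferase SETDB1 and heterochromatin proteins to the bound site, and many KRAB zinc finger proteins silence transposable elements in this way in embryonic stem cells. The genes arise by tandem duplication and lie in clusters, so neighbours are often close copies of each other.

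Transcripts were counted by RNA sequencing in R1 mouse embryonic stem cells (ESCs), in 13 groups of 2 libraries. Wild-type groups were untreated cells (ESC), cells in the solvent DMSO, cells in 0.53 µM retinoic acid for 48 h (RA), cells in 4 nM pladienolide B, a splicing inhibitor, for 4 days (PlaB), and cells in which doxycycline for 24 h induced Zscan4 (Zscan4 OE), Dux (Dux OE) or Dux with an arginine-to-alanine change (DuxR70A OE). The only dose of doxycycline given is the 4 µg/mL stated for induction of Dux. Dux, a homeobox transcription factor, drives the state resembling the 2-cell embryo (2C-like), and Zscan4 is a marker of it. Cells with Dux knocked down were sampled with RA, PlaB or Zscan4 induction (Dux KD RA, Dux KD PlaB, Dux KD Zscan4 OE). Cells lacking the Tdpoz super-enhancer, removed with CRISPR-Cas9, were sampled with RA, PlaB or Dux induction (SE KO RA, SE KO PlaB, SE KO Dux OE). All groups were of this 1 line, grown with LIF on gelatin. The knockdown used published hairpins, whose sequences, like the clones, were not given in the sources used here. The study calls the replicates of some of these groups biological. Whether they were separate cultures was not given, so p-values measure a spread between libraries that may be technical. This spread was estimated for each gene over all 13 groups in 1 model, not from the 2 groups compared. Standard errors and p-values therefore do not show how close the libraries of those 2 groups lie. For Dux KD Zscan4 OE the treatment label reads no and gives no time. Replicate 1 of SE KO RA carries the genotype label WT although its title reads SE KO.

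Library totals ran from 14401452 to 39402840 counts, with a median of 18276934. Duxf3, the Dux gene of the count table, was counted 191 and 181 times in PlaB, 49 and 59 times in RA and 27 and 17 times in Zscan4 OE. With Dux knocked down it had 1 and 0 counts under PlaB, 16 and 6 under RA and 1 and 0 under Zscan4 induction. It had 55 and 48 counts in Dux OE and 0 in both DuxR70A OE libraries, so it does not show the induction in the libraries labelled DuxR70A OE. All 10 ESC markers of a fixed list were detected in every group, with summed levels between 3540 and 8490 CPM, the counts scaled by library size and edgeR's TMM factors. The 9 listed 2C-like markers found in the table summed to 7.66 and 5.97 CPM in DMSO, 8410 and 8470 in PlaB, 680 and 600 in SE KO PlaB and 7.9 and 7.35 in the knockdown with PlaB. The median share of the PlaB response present was taken over the 10620 genes used to gauge it. It was 0.0862 in the libraries labelled Dux KD PlaB, 0.223 in those labelled SE KO PlaB and 0.0975 in untreated ESC. Of the groups without PlaB, DMSO aside, the lowest was SE KO RA at 0.0589 and the highest Dux KD RA at 0.202. For the members named in the comparisons of Dux KD PlaB and SE KO PlaB with PlaB, DMSO levels are given as well. The matching shares of the RA response were 0.84 in Dux KD RA and 0.692 in SE KO RA.

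The 62 genes lay on 11 chromosomes. Joining neighbours at most 1 Mb apart gave 5 clusters with 43 of them, and 19 lay outside. The chromosome 4 cluster at chr4:145510759-147848366 held 16 genes and 45.9% of all counts of the 62. The cluster at chr2:175372436-178078476 held 10 genes but only 2.06% of the counts, and that at chr17:21567008-22867134 held 10 genes and 7.79%. The small clusters were 4 genes at chr7:42579783-43192109, with 8.13% of the counts, and 3 genes at chr8:69209038-69749970, with 3.65%. Coordinates are those of the count table (mm10). Of the 62, 61 are annotated as protein coding in GENCODE M21 and Zfp939 as an unprocessed pseudogene.

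The longest open reading frame of at least 1 transcript held a KRAB A pattern in 58 of the 62, all but Zfp939, Zfp956, Zfp972 and Zfp974. In the longest frame of each gene, the number of C2H2 finger patterns had a median of 11. It ran from 0 in Zfp972 to 21 in Zfp974. Sequence shared with other genes limits how well reads are assigned. Of all 100-base windows of their transcripts, a median of 76.6% occurred in another gene for the chromosome 2 cluster and 36.7% for the chromosome 4 cluster, against 0.7% for chromosome 17, 5.45% for chromosome 7, 0.1% for chromosome 8 and 1.2% outside clusters. In Zfp967 and Zfp969 on chromosome 2 every window was shared. Whether the counting kept or dropped such reads, and whether it used strand, was not given in the sources used here.

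Promoters of the chromosome 4 cluster are shown because its members moved together in the comparisons below. RefSeq (GRCm38.p6) gave a promoter for 52 of the 62 genes. The 250 bases before the start site of Zfp979 at chr4:147642509-147642758 (minus strand), Zfp980 at chr4:145670447-145670696 (plus strand), Zfp985 at chr4:147553027-147553276 (plus strand) and Zfp987 at chr4:146097062-146097311 (plus strand) follow, 5′ to 3′, with the 193 bases that are the same in all 4 after alignment in capitals.
Zfp979: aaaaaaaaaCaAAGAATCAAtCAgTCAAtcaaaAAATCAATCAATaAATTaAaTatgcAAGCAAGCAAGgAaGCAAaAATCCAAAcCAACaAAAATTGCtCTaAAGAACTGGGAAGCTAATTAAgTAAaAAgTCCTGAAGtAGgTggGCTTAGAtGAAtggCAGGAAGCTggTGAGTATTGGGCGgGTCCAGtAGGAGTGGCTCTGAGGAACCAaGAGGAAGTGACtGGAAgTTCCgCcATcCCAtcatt
Zfp980: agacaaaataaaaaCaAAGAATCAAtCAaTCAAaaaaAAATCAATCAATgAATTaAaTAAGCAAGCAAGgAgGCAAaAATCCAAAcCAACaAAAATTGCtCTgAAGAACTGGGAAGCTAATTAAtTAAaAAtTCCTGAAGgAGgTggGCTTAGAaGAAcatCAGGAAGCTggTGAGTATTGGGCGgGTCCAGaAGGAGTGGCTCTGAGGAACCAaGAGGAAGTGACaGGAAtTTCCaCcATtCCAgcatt
Zfp985: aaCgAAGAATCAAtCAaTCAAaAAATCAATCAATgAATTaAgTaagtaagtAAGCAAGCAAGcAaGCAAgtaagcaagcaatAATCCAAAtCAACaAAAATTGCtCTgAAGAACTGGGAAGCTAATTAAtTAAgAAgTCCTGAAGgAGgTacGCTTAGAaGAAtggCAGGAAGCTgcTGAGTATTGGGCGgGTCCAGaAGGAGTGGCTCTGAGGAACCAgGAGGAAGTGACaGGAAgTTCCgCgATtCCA
Zfp987: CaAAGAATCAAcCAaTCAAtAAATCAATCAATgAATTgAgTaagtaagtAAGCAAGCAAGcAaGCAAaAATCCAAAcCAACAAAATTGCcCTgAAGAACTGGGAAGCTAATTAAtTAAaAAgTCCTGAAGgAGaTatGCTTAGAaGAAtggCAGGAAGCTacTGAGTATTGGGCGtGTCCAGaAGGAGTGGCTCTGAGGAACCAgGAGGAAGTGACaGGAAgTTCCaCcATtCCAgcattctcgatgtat

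Zfp933 lies in the same cluster and its promoter, at chr4:147848419-147848668 (minus strand), is shown as a contrast in sequence. Over the whole 300-base windows it was 44.7% identical to that of Zfp979, which was 89.7% identical to that of Zfp980. No base of it is in capitals.
Zfp933: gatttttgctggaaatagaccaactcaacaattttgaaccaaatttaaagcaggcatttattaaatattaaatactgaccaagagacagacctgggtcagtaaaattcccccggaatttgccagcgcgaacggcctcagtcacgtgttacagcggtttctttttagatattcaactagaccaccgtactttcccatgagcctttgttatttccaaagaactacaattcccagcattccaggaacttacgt

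The promoters of Zfp970 at chr2:177464492-177464741 (plus strand) and Zfp971 at chr2:178023034-178023283 (plus strand), in the chromosome 2 cluster, belong to the called members with the largest rises after Dux knockdown in RA. Capitals mark the 235 bases identical in both after alignment.
Zfp970: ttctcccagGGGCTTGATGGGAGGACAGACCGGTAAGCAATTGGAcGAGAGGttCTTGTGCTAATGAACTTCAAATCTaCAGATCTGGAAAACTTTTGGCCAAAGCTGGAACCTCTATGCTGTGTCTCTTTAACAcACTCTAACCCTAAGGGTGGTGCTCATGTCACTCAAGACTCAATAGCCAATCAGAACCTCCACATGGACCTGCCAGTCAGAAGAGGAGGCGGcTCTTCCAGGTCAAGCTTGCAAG
Zfp971: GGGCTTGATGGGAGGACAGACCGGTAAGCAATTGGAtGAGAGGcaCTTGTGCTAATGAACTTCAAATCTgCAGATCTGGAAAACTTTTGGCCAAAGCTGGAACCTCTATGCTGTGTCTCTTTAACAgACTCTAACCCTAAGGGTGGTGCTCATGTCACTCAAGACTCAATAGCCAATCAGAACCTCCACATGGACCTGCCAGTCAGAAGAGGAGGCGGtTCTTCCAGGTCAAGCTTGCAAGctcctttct

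Pairwise promoter identity had a median of 67.7% over 45 pairs on chromosome 4 and of 76.2% over 36 pairs on chromosome 2, against 46.3% over the 136 pairs of genes outside clusters. On chromosome 17 the median was 46.0%. Both strands of the 300-base windows (250 bases before to 50 after the start) were searched for 3 motifs. The DUX motif, TGATT and AATCA with any 1 base between, was in none of the 52 promoters and in 0.04% of those of all 27025 genes. The retinoic acid response element, AGGTCA repeated with any 5 bases between, was also in none, against 0.01%. The ZSCAN4 motif TGCACACA was in 1 of 52, that of Zfp982, or 1.92%, against 2.11%. These matches describe letters in these windows only. Zfp942 and Zfp943 on chromosome 17 are divergent genes whose start sites are 95 bases apart.

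Zfp961, outside the clusters, had the highest level per length, with a median of 36.5 CPM per kb of exon over the 26 libraries. The next were Zfp990 at 32.9, Zfp979 at 29.3, Zfp978 at 22.2 and Zfp988 at 16.1 CPM per kb, all from the chromosome 4 cluster. The median gene of the 62 stood at 3.18 CPM per kb, close to the 2.85 of the other Zfp genes with a number and above the 1.87 of all genes tested. Zfp961 had 197 and 192 CPM in ESC, 115 and 111 in RA and 98.9 and 99.2 in SE KO RA, and passed the test in no comparison. Zfp945 had the most counts on chromosome 17 and was also never called, with a lowest library of 18.6 CPM and a highest of 49.4. Of the 62, 58 passed the filter on low counts and were tested, and the other 4 (Zfp966, Zfp967, Zfp968 and Zfp969) all lie in the chromosome 2 cluster.

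A gene was called where edgeR's quasi-likelihood test, fitted to all 26 libraries, gave a Benjamini-Hochberg adjusted p under 0.05 over all 20953 genes and a fold of at least 2 (1 on the log2 scale). Of the 58 tested, 48 were called in at least 1 of the 13 comparisons and 10 in none. The 10 were Zfp934, Zfp939, Zfp941, Zfp945, Zfp949, Zfp954, Zfp961, Zfp974, Zfp975 and Zfp993. Not called does not mean level, as Zfp975 on chromosome 7 ran from 8.08 CPM in SE KO RA to 46.7 in SE KO PlaB, while Zfp941 ran from 11.1 to 20.5. Zfp951 was called in 8, Zfp980 in 7, and Zfp937 and Zfp947 in 6 each. The lowest mean level was that of SE KO RA for 32 of the 58, including 14 of the 16 on chromosome 4. The highest was that of Dux KD Zscan4 OE for 18, of which 13 were on chromosome 4, and that of PlaB for 14. The libraries of Dux KD Zscan4 OE were far apart. Summed over the chromosome 4 members, replicate 1 had 796 CPM, below the 924 and 914 of Zscan4 OE, and replicate 2 had 1480.

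**Figure D1:**
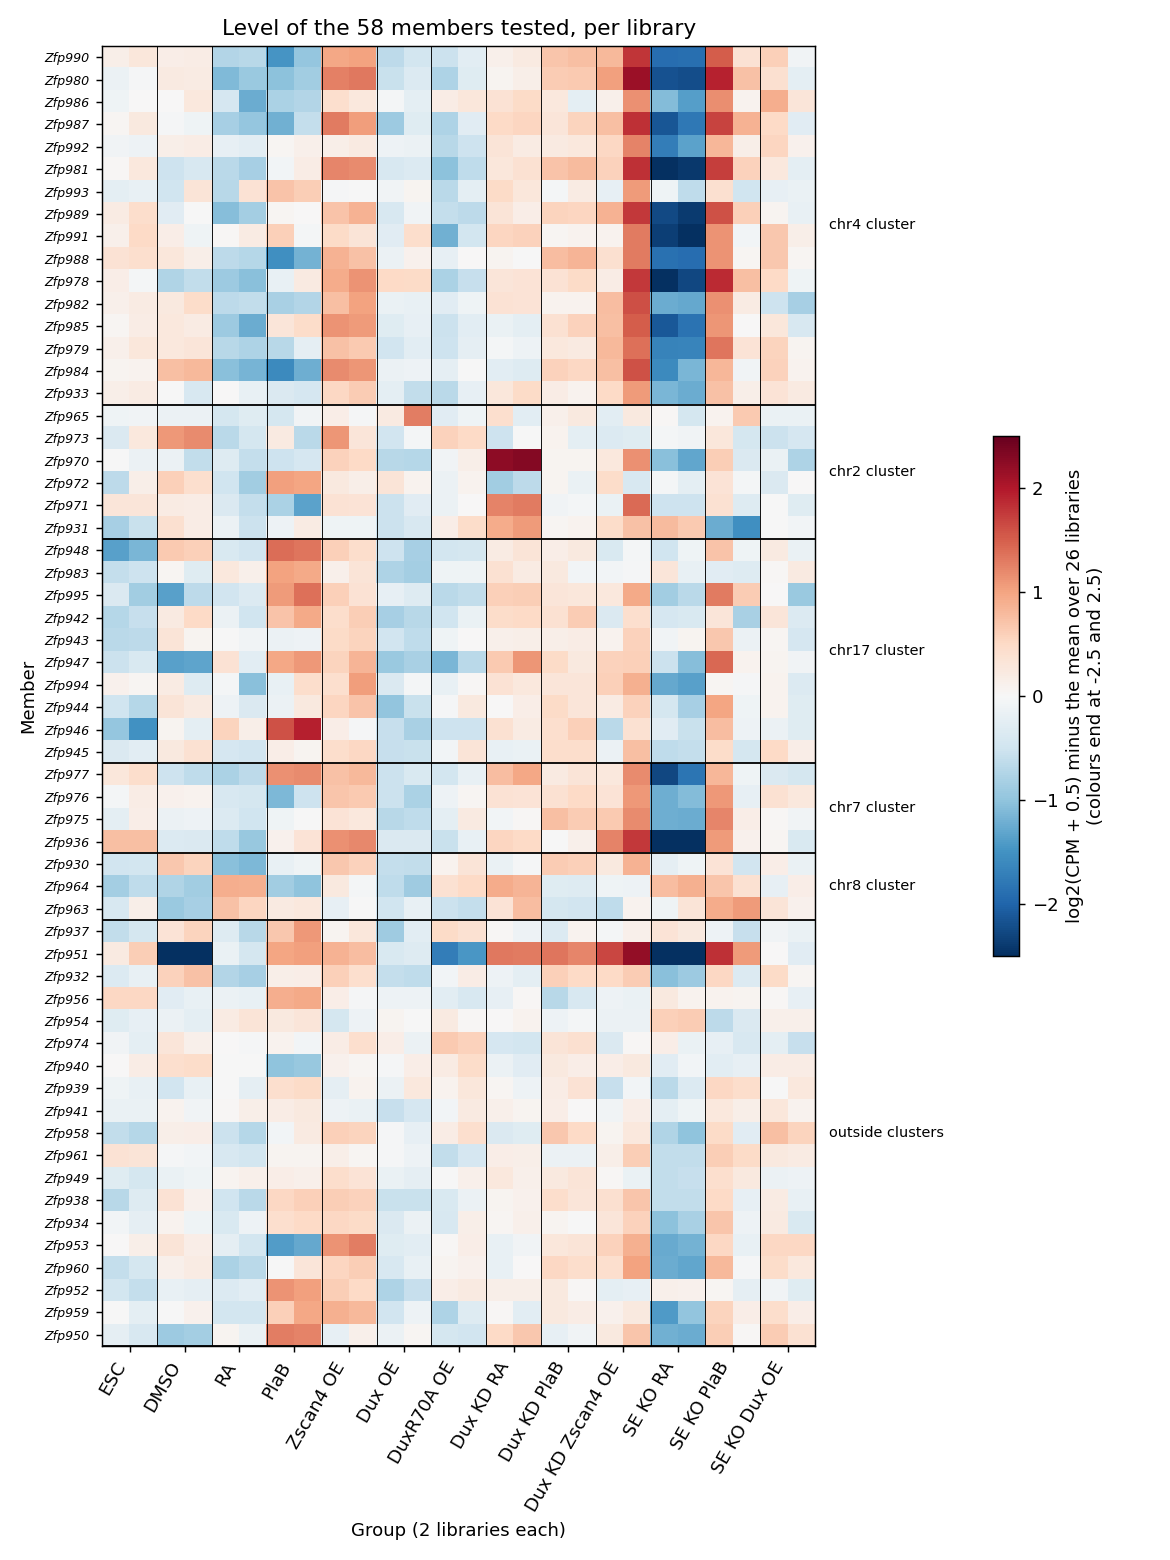
Level of each tested gene in each of the 26 libraries, as log2(CPM + 0.5) minus the gene's mean over the libraries, with genes ordered by cluster and libraries by group. The chromosome 4 block is low in both SE KO RA libraries and high in 1 library each of Dux KD Zscan4 OE and SE KO PlaB.

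Members of the chromosome 4 cluster followed each other. Over the 13 group means, the correlation between 2 of its genes had a median of 0.86 (120 pairs, from 0.05 to 0.98), against 0.34 over the 1464 pairs of members not in the same cluster. The median was 0.81 over 6 pairs on chromosome 7, 0.57 over 45 on chromosome 17 and 0.09 over 15 on chromosome 2. These points share libraries, depth and, in part, sequence. Zfp979 correlated at 0.96 with Zfp990, which shares 3.6% of its windows with any other gene, and at 0.90 with Zfp933. Within the cluster Zfp993 was least like Zfp979, at 0.34. The pattern was not particular to chromosome 4. On chromosome 7, Zfp976, Zfp975, Zfp936 and Zfp977 correlated with Zfp979 at 0.91, 0.89, 0.88 and 0.67. Outside clusters the values ran from 0.87 for Zfp960 to -0.89 for Zfp954.

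Summed over the 16 genes, the chromosome 4 cluster stood at 524 and 562 CPM in ESC and 553 and 559 in DMSO. RA had 289 and 280, PlaB 299 and 369, Dux OE 377 and 423, and DuxR70A OE 331 and 405, all below both controls. Zscan4 OE had 924 and 914. Dux KD RA was at 514 and 515, Dux KD PlaB at 682 and 702, and SE KO RA lowest of all groups at 127 and 137. The last 3 groups had libraries far apart, with 796 and 1480 CPM in Dux KD Zscan4 OE, 1280 and 608 in SE KO PlaB, and 688 and 462 in SE KO Dux OE.

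**Figure D2:**
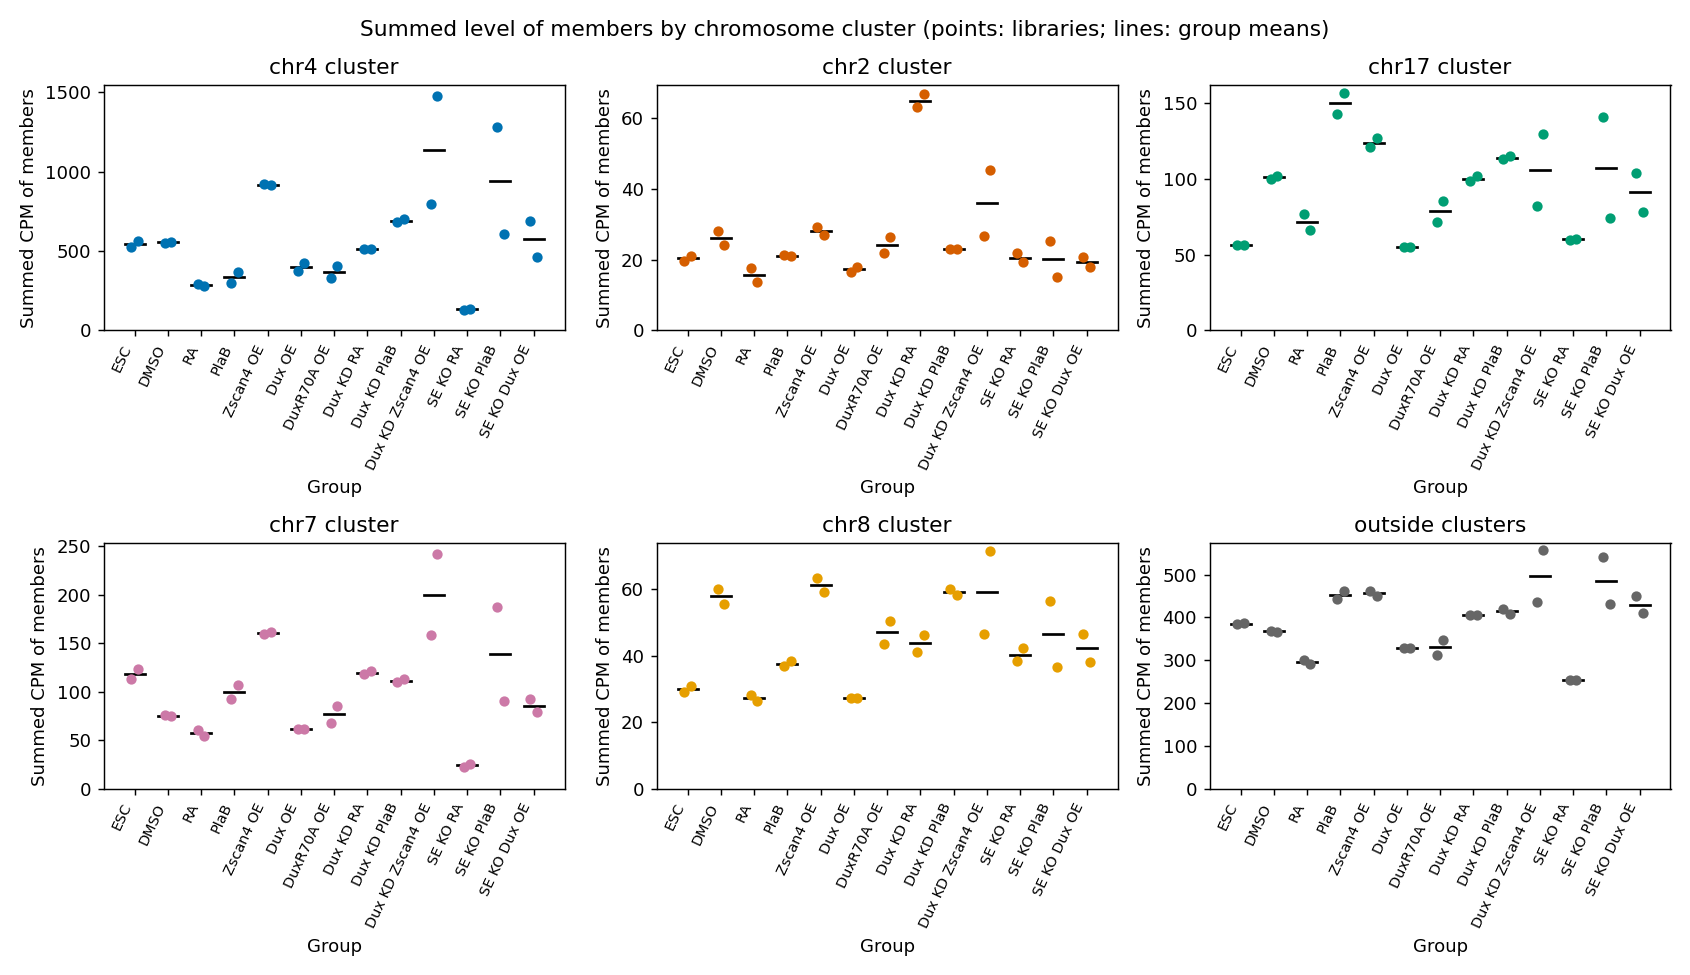
Summed CPM of each cluster, and of the genes outside clusters, in the 13 groups, with 1 point per library and a line at the mean of the group. On chromosome 4 both SE KO RA libraries lie below all others, at 127 and 137 CPM.

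The spread in these 3 groups ran in 1 direction over the genes. In Dux KD Zscan4 OE all 16 were higher in replicate 2, in SE KO PlaB all 16 were higher in replicate 1, and in SE KO Dux OE 15 of 16 were higher in replicate 1. The ratios of the sums were 1.87, 2.1 and 1.49, against 1.0 to 1.23 in the other groups. The other clusters moved with them in SE KO PlaB, where the replicate ratio was 1.9 on chromosome 17 and 2.09 on chromosome 7. Over all genes the same 3 groups departed most from counting noise, at 26.1, 30.2 and 9.81 times the chi-square expected. The other groups had 1.55 to 6.19. This measure grows with depth, and the SE KO Dux OE libraries were the deepest. Replicates of the 3 groups correlated in log2 CPM at 0.983, 0.986 and 0.99, against 0.986 to 0.992 elsewhere. For the 3 groups, counts of calls and the main single-gene values are also given with 1 library left out.

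RA lowered more of the genes than it raised. Of 58, 16 were called against DMSO, 4 higher and 12 lower, while 31% of all genes were called, 20.6% higher and 10.4% lower. The median log2 difference of the members was -0.48 against 0.1 over all genes. Scaling by library size alone made the split 5 higher and 7 lower and put the median of all genes at 0.3. Of the 12, 6 lay on chromosome 4.

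Zfp984 on chromosome 4 had 67.1 and 69.9 CPM in DMSO and 19.0 and 17.4 in RA, without overlap, a log2 difference of -1.91 (SE 0.23, edgeR adjusted p = 6.15e-08). Zfp979 had 135 and 139 CPM in DMSO and 69.2 and 65.8 in RA (-1.02, SE 0.21). Zfp932, a protein known to bind endogenous retroviruses, had 20.1 and 22.4 CPM in DMSO and 7.84 and 7.21 in RA (-1.5, SE 0.19). Untreated ESC had 10.3 and 11.6 CPM of Zfp932, between the other groups. Zfp973 on chromosome 2 had 1.19 and 1.32 CPM in DMSO. It was at or under the floor of 3 counts per library in RA, at least 9.23-fold lower. But ESC had only 0.125 and 0.466 CPM, and against ESC it was not called. Zfp973 shares 73.2% of its windows with other genes.

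The 4 that rose were Zfp951, Zfp963, Zfp964 and Zfp947. Zfp964 on chromosome 8 had 1.25 and 1.1 CPM in DMSO and 4.97 and 4.93 in RA, a log2 difference of 2.08 (SE 0.25, edgeR adjusted p = 5.43e-08), and it stayed high in both altered lines, at 5.11 and 4.77 in Dux KD RA and 4.51 and 4.91 in SE KO RA. Zfp951 had 2.04 and 1.48 CPM in DMSO and 12.2 and 9.91 in RA, which is 2.65 on the log2 scale. Untreated ESC had 16.2 and 21.2 CPM of Zfp951, above RA, and against ESC the difference was -0.75. Primitive endoderm markers, 7 in the list, summed to 10.7 and 8.83 CPM in DMSO and 99.7 and 102 in RA, with Foxa2 at 0 in DMSO. In bulk RNA, fewer cells of a type and less RNA per cell cannot be told apart, and the part of such markers in these differences was not tested.

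PlaB shared the DMSO libraries with the RA comparison. Of the 58 tested genes 20 were called, 10 higher and 10 lower, beside 58.9% of all genes, 32.3% higher and 26.6% lower. The members' share was 34.5%, and their median log2 difference 0.13 against 0.22 over all genes. With library size alone the split was 14 higher and 7 lower, and the median of all genes 0.48. The clusters differed in the sign of their calls. Chromosome 4 had 0 higher and 6 lower of 16, and chromosome 17 had 4 higher and 0 lower of 10. Unlike the members, the 43 other genes tested in the chromosome 4 span had 18 higher and 6 lower. Those in the chromosome 17 span had 7 of 17 higher and 0 lower.

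The largest rise was that of Zfp951, at 27.5 and 28.4 CPM in PlaB against 2.04 and 1.48 in DMSO, a log2 difference of 3.99 (SE 0.26, edgeR adjusted p = 1.17e-13). Against untreated ESC its difference was 0.58 and not called. Zfp947 on chromosome 17 had 0.624 and 0.658 CPM in DMSO and 5.17 and 5.66 in PlaB (3.07, SE 0.42), and its neighbour Zfp995 had 2.04 and 3.62 in DMSO and 13.1 and 16.4 in PlaB (2.37, SE 0.3). Zfp946 and Zfp983 of the same cluster rose as well. The groups were apart for Zfp951, Zfp947 and Zfp995. The largest falls were those of Zfp973, Zfp984 and Zfp953. Zfp940, outside the clusters, had 23.8 and 24.6 CPM in DMSO and 8.56 and 8.92 in PlaB, its lowest level in any group (-1.47, SE 0.12). Zfp984 dropped to 12.9 and 16.8 CPM (-2.2, SE 0.24) and Zfp953 from 9.7 and 8.61 to 2.61 and 2.85 (-1.74, SE 0.2). The 2C-like markers moved with PlaB by the values given above, and their part was not tested.

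**Figure D3:**
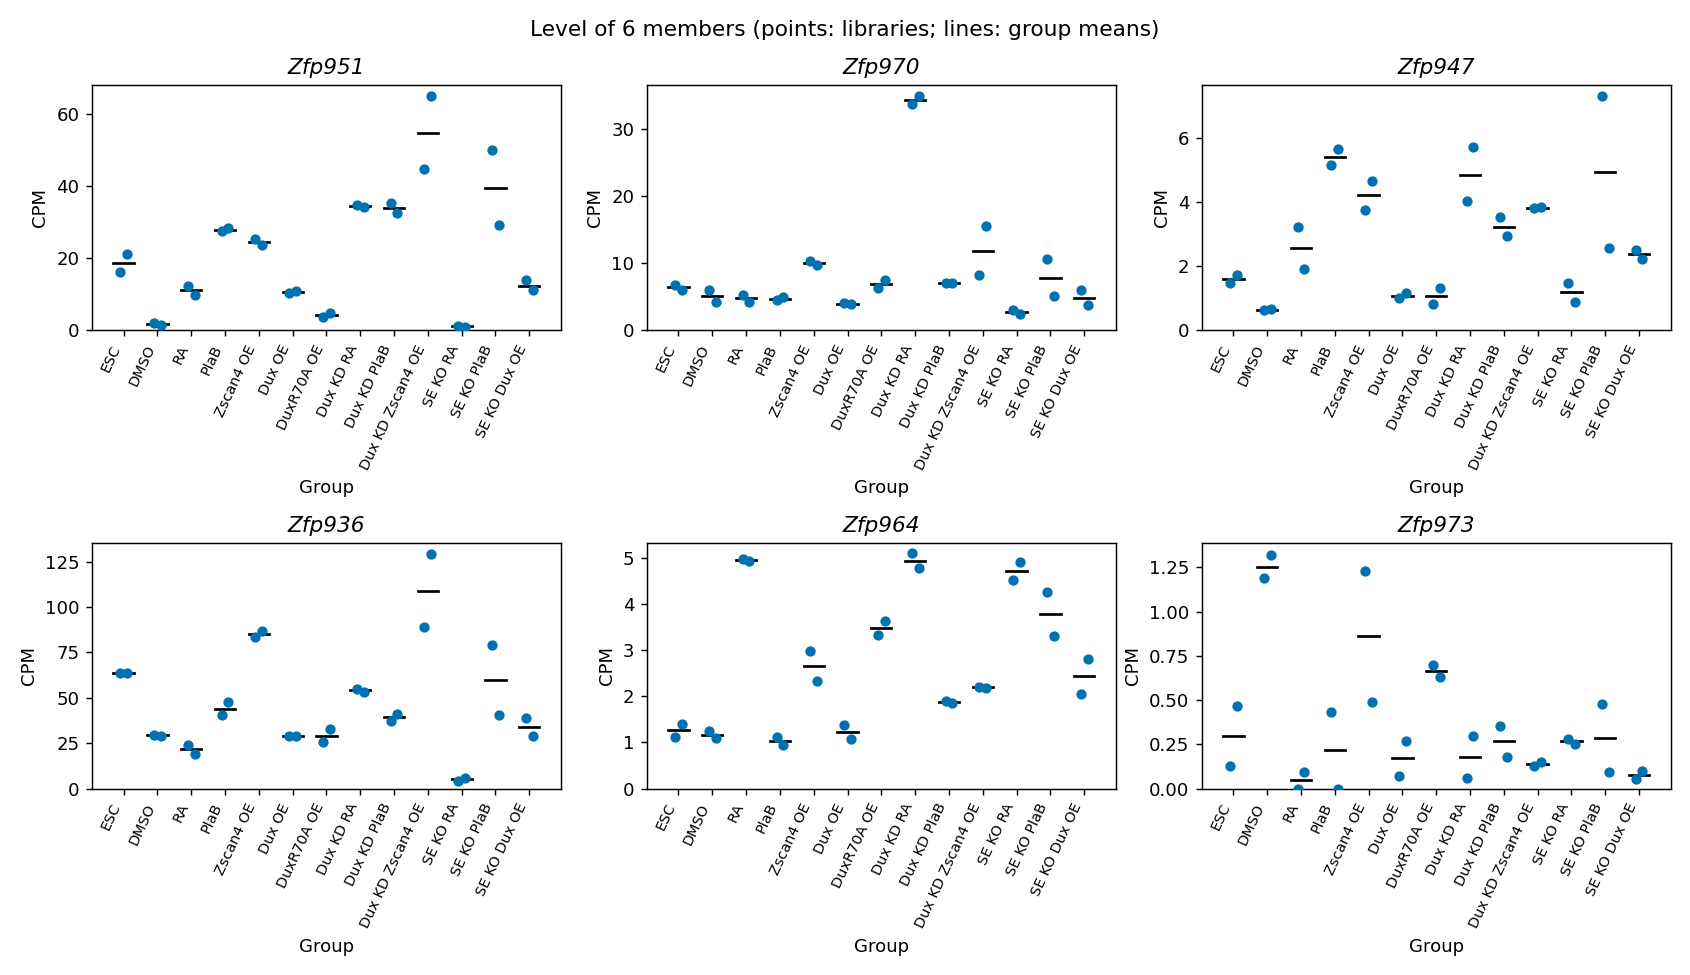
CPM of Zfp951, Zfp970, Zfp947, Zfp936, Zfp964 and Zfp973 in every library, 1 point per library and a line at the mean in each of the 13 groups, each gene on its own axis. Zfp951 is lowest in DMSO and SE KO RA, and Zfp970 is highest in the Dux KD RA libraries, at 33.8 and 35.0 CPM.

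The controls themselves differed. Between DMSO and untreated ESC 10 of the 58 were called, 7 higher and 3 lower, beside 16.2% of all genes, 8.32% higher and 7.91% lower. Zfp951 was lower in DMSO by 3.41 on the log2 scale (log2 difference -3.41, SE 0.27, edgeR adjusted p = 1.36e-10). Zfp936 on chromosome 7 had 63.7 and 63.6 CPM in ESC and 29.5 and 29.2 in DMSO. Zfp948 on chromosome 17 had 4.36 and 5.13 in ESC and 19.1 and 18.4 in DMSO (1.98, SE 0.22). The direction of a comparison for Zfp951 and Zfp948 thus depended on which control was used.

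With Zscan4 induced, every called gene was higher. Against ESC 19 of 58 rose and 0 fell, beside 11.6% of all genes called, 7.25% higher and 4.39% lower. The share of the other Zfp genes called was 10.4%. The members' median log2 difference was 0.76 against 0 over all genes, and 0.91 against 0.15 with library size alone. On chromosome 17, 7 of 10 rose, with 9 of the 17 other genes tested in that span, and on chromosome 4, 4 of 16.

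Zfp948 had 4.36 and 5.13 CPM in ESC and 18.2 and 16.3 in Zscan4 OE, the largest difference at 1.86 (SE 0.22, edgeR adjusted p = 1.86e-07). DMSO, at 19.1 and 18.4, was as high. Zfp980 on chromosome 4 had 25.9 and 28.2 CPM in ESC, 33.8 and 33.4 in DMSO and 69.7 and 72.3 in Zscan4 OE, above both controls, with 1.39 (SE 0.28) against ESC. Against DMSO 11 of the 58 were called. On chromosome 17 that left 2 of 10 higher, with a median of 0.36 in place of 1.26, while chromosome 4 had 4 higher against either control. The 2C-like markers summed to 34.8 and 27.3 CPM in ESC and 353 and 380 in Zscan4 OE, and their part was not tested.

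With Dux induced, 1 of 58 was called, 0 higher and 1 lower, beside 9.51% of all genes, 7.38% higher and 2.12% lower. It was Zfp936, at 63.7 and 63.6 CPM in ESC and 29.1 in both Dux OE libraries (-1.13, SE 0.21, edgeR adjusted p = 0.000156). DMSO had the same level, and against DMSO Zfp936 was not called. With DMSO as the control, 10 of the 58 were called, 3 higher and 7 lower, and the members' median was -0.38. Leaving out replicate 1 of Dux OE gave 2 called. The members' median log2 difference was -0.21, against 0 over all genes. The 2C-like markers, for comparison, summed to 3940 and 3860 CPM in Dux OE against 34.8 and 27.3 in ESC.

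With DuxR70A, 7 of 58 were called against ESC, 3 higher and 4 lower, beside 16.9% of all genes, 10.2% higher and 6.72% lower. Zfp951 had 3.76 and 4.71 CPM against 16.2 and 21.2 in ESC (-2.15, SE 0.24, edgeR adjusted p = 3.23e-08). Both DMSO libraries, by the values given above, had less Zfp951 than DuxR70A OE, so against DMSO its difference had the opposite sign. Zfp964 had 3.33 and 3.64 CPM against 1.12 and 1.4 in ESC (1.46, SE 0.27). Against Dux OE, 6 were called, 2 higher and 4 lower, beside 13.6% of all genes, 6.11% higher and 7.51% lower. Among them Zfp964 was higher and Zfp951, at 10.4 and 10.9 CPM in Dux OE, lower by 1.34 (log2 difference -1.34, SE 0.25). Zfp965 was at or under the floor in DuxR70A OE, at least 4.12-fold lower, but its Dux OE libraries were uneven at 0.291 and 1.15 CPM. It shares 93.4% of its windows with other genes. With library size alone the splits turned to 7 higher and 1 lower against ESC and 7 and 3 against Dux OE, and the median of all genes was 0.2 and 0.17 in place of 0 and -0.01.

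**Figure D4:**
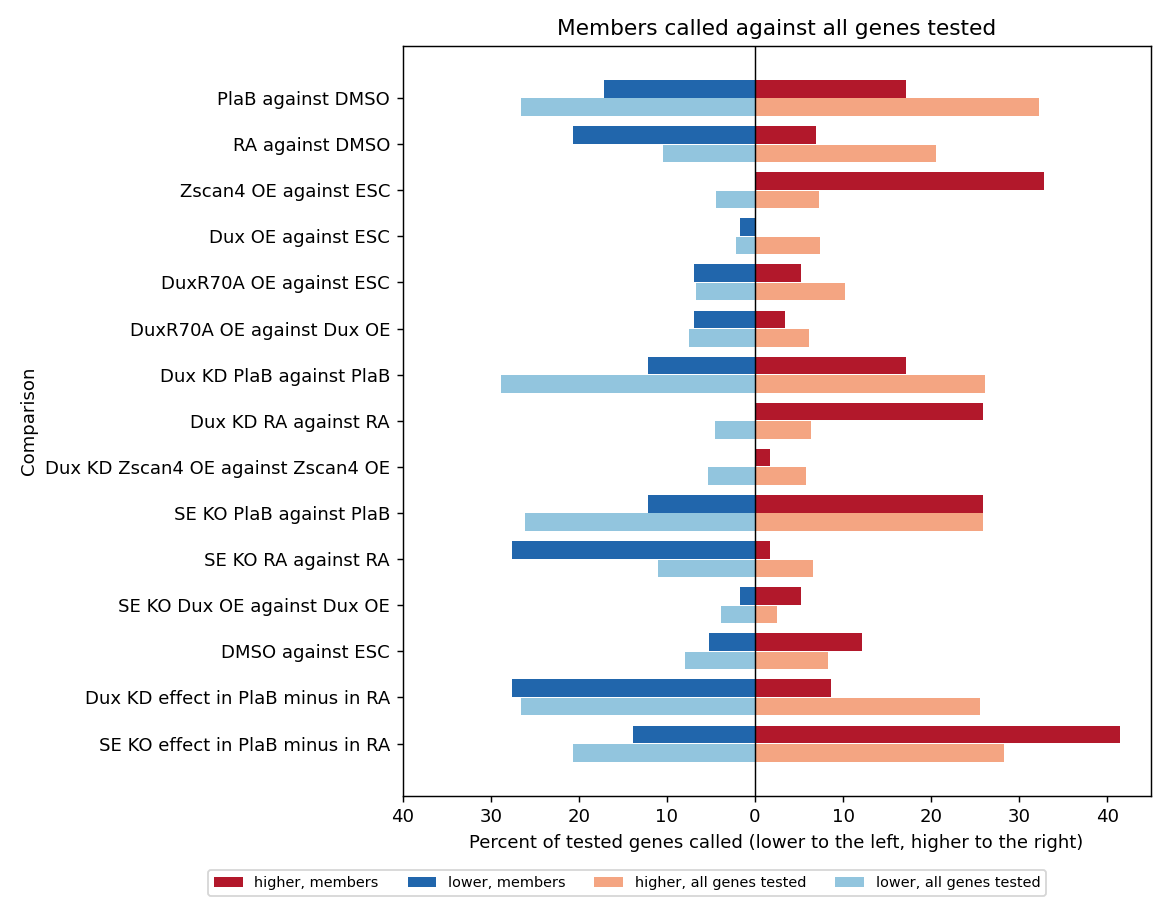
Percent of the tested Zfp9 genes called higher and lower in the 13 comparisons and both contrasts between treatments, lower to the left and higher to the right, beside the percent of all 20953 genes. Members called higher take a larger share than all genes with Zscan4 induction and with Dux knockdown in RA, and members called lower do so for RA and for the deletion in RA.

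Dux knockdown in RA raised 15 of 58 and lowered 0, beside 10.9% of all genes called, 6.41% higher and 4.53% lower. The share called among the other Zfp genes was 7.36%. The median log2 difference was 0.65 for the members and 0.02 for all genes. The chromosome 4 cluster had 7 of 16 higher, with a median of 0.88, and the other genes tested in its span 9 of 43.

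Chromosome 2 held the largest changes. Zfp970 had 5.33 and 4.28 CPM in RA and 33.8 and 35.0 in Dux KD RA, a log2 difference of 2.84 (SE 0.26, edgeR adjusted p = 3.91e-09), and no other library of the 26 exceeded 15.6. Zfp971 had 4.05 and 3.35 in RA and 13.3 and 13.9 in Dux KD RA (1.87, SE 0.3). Zfp931 had 5.81 and 4.28 in RA and 12.7 and 14.0 in Dux KD RA (1.4, SE 0.18). The 3 genes had no overlap between groups, and Zfp972 of the same cluster, at 1.49 and 1.82 CPM against 2.07 and 1.49 in RA, was not called. Of the 32 other genes tested in that span, 22 were higher. Zfp970 shares 17.4% and Zfp971 22.1% of its windows with other genes, so part of these counts could come from neighbours. Zfp970 stood at 6.72 and 6.06 CPM in ESC and 6.07 and 4.22 in DMSO.

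Zfp951 and Zfp936 also rose with Dux knockdown in RA. Zfp951 reached 34.7 and 34.3 CPM from 12.2 and 9.91 (1.64, SE 0.2), and Zfp936 reached 55 and 53.3 from 24.0 and 19.3 (1.32, SE 0.21), both by edgeR with adjusted p of 3.14e-07 and 1.4e-05. The 2C-like markers summed to 422 and 415 CPM in Dux KD RA and 649 and 527 in RA, and the primitive endoderm markers to 116 and 117 against 99.7 and 102. Their part was not tested.

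In PlaB, Dux knockdown gave 17 called of 58, 10 higher and 7 lower, beside 54.9% of all genes, 26.1% higher and 28.8% lower. The split was 8 higher and 10 lower with RLE size factors and 8 and 11 with library size alone, and the median of all genes moved from -0.14 to -0.29 and -0.33. Chromosome 4 had 6 of 16 higher and 0 lower, while the 43 other genes tested in its span had 9 higher and 14 lower. Zfp988 had 72.5 and 75.9 CPM against 14.3 and 18.4 in PlaB and 51.3 and 46.7 in DMSO (2.18, SE 0.26, edgeR adjusted p = 1.93e-08). Zfp984 had 59.1 and 56.6 CPM against 12.9 and 16.8 in PlaB and 67.1 and 69.9 in DMSO (1.96, SE 0.24). The fallers included Zfp950, at 9.37 and 10.2 against 26.9 and 26.1 in PlaB and 5.5 and 5.81 in DMSO. Zfp988, Zfp984 and Zfp950 thus all lay nearer to DMSO than to PlaB, with Zfp988 above both.

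The effect of Dux knockdown differed between the treatments for 21 of 58, 5 higher and 16 lower in PlaB than in RA, beside 52.2% of all genes, 25.5% higher and 26.6% lower. Zfp977 on chromosome 7 went up with the knockdown in RA, from 6.43 and 7.12 to 19.9 and 22.8 CPM, and had 13.4 and 14.5 CPM in Dux KD PlaB against 25.7 and 26.5 in PlaB and 7.88 and 7.18 in DMSO. The difference of the 2 effects was -2.56 (SE 0.33, edgeR adjusted p = 1.18e-07). On library size alone the split was 3 higher and 25 lower, with a median of all genes of -0.47 in place of -0.2.

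With Zscan4 induced, Dux knockdown left 1 gene called of 58, beside 11.1% of all genes, 5.78% higher and 5.35% lower. Zfp951 had 25.3 and 23.7 CPM in Zscan4 OE and 44.6 and 64.8 in Dux KD Zscan4 OE (1.16, SE 0.19, edgeR adjusted p = 2.54e-05). Without replicate 2 of the knockdown Zfp951 stood at 0.87 and was not called, and without replicate 1 it stood at 1.41. Without replicate 1 of the knockdown 5 genes were called, and without replicate 2 edgeR called 0, with 16 at an unadjusted p under 0.05. Without replicate 2 of Zscan4 OE 2 were called. On chromosome 4 the median log2 difference was 0.74 without replicate 1 and -0.27 without replicate 2.

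Deletion of the super-enhancer in RA lowered 16 of 58 and raised 1, beside 17.6% of all genes called, 6.57% higher and 11% lower. The members' median log2 difference was -0.56 against -0.04 over all genes. Of the 16 on chromosome 4, 10 fell and 0 rose, with a median of -1.22. Of the 43 other genes tested in the same span, 23 fell and 1 rose. Without replicate 1 of SE KO RA, the library with the mixed label, 9 of the 16 fell and the median was again -1.22.

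Zfp991 on chromosome 4 had 8.58 and 9.77 CPM in RA and 1.26 and 0.719 in SE KO RA (-3.22, SE 0.46, edgeR adjusted p = 2.43e-06). Zfp951 had 12.2 and 9.91 in RA and 1.26 and 0.973 in SE KO RA (-3.31, SE 0.29), and Zfp936 had 24.0 and 19.3 in RA and 4.37 and 5.63 in SE KO RA (-2.11, SE 0.25). The 3 genes lie on chromosomes 4, 5 and 7, and none had overlapping groups. Zfp991 shares 70.3% of its windows with other genes, so part of its counts could come from them. Zfp989 on chromosome 4 had 3.52 and 4.19 CPM in RA and 1.26 and 1.1 in SE KO RA (-1.71, SE 0.37). Zfp931 was the 1 that rose, from 5.81 and 4.28 to 11.6 and 10.4 CPM (1.12, SE 0.17). Without the library with the mixed label the values were -3.66 for Zfp991, -3.50 for Zfp951 and -1.94 for Zfp936. The 2C-like markers summed to 69.7 and 75.9 CPM in SE KO RA, and the primitive endoderm markers to 58.3 and 62.8. Both are below RA, and their part was not tested.

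In PlaB the deletion gave 22 called of 58, 15 higher and 7 lower, beside 52% of all genes, 25.9% higher and 26.1% lower. Of the other Zfp genes 38.5% were called, 31.1% higher and 7.36% lower. The members' split rested on single libraries, with 10 higher and 12 lower without replicate 1 of SE KO PlaB and 18 and 5 without replicate 2. The members' median log2 difference was 0.34, and -0.15 without replicate 1 and 0.70 without replicate 2. It shared the PlaB libraries with the Dux knockdown comparison. Chromosome 4 had 11 of 16 higher and 0 lower, with a median of 1.38. The 43 other genes tested in its span had 13 higher and 9 lower, with a median of 0.22. Zfp980 had 14.0 and 15.5 CPM in PlaB, 111 and 48.1 in SE KO PlaB and 33.8 and 33.4 in DMSO (2.43, SE 0.29, edgeR adjusted p = 2.44e-08). Zfp990 had 36.9 and 52.7 in PlaB, 297 and 132 in SE KO PlaB and 116 and 117 in DMSO (2.25, SE 0.27). Both SE KO PlaB libraries were above DMSO for each of these genes, but by unequal amounts. Without replicate 1 the cluster had 7 higher and 1 lower, with a median of 0.75, and without replicate 2, 12 higher and 0 lower, with 1.81. Without replicate 1, Zfp980 stood at 1.71 and Zfp990 at 1.55. Zfp931 fell, with 5.9 and 7.47 CPM in PlaB and 2.43 and 1.91 in SE KO PlaB, where DMSO had 8.62 and 7.45 (-1.62, SE 0.2). The primitive endoderm markers summed to 32.7 and 37.8 CPM in PlaB, with Foxa2 at 0, and to 127 and 138 in SE KO PlaB. Their part, and that of the 2C-like markers given above, was not tested.

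The effect of the deletion differed between PlaB and RA for 32 of 58, 24 higher and 8 lower in PlaB. That is 41.4% higher and 13.8% lower, beside 28.3% and 20.7% of all genes, of which 49% were called. The other Zfp genes were close to the members, with 51.5% called, 41.5% higher and 10% lower. On chromosome 4 the effect differed for 15 of 16, all higher in PlaB, with a median difference of 2.94. Among the 43 other genes tested in that span it was 20 higher and 1 lower. Zfp993 was the 1 member of the cluster not called. Without replicate 1 of SE KO PlaB the split over all members was 21 higher and 11 lower, with 14 of 16 called on chromosome 4 and a median difference there of 2.26. Without replicate 2 it was 28 higher and 7 lower, with 15 called and 3.38. Zfp951 differed by 3.82 (SE 0.35, edgeR adjusted p = 1.72e-10) and Zfp931 in the opposite direction by -2.74 (SE 0.27, edgeR adjusted p = 7.45e-10). With either SE KO PlaB library left out, Zfp951 differed by 3.38 or 4.15 and Zfp931 by -2.93 or -2.58.

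**Figure D5:**
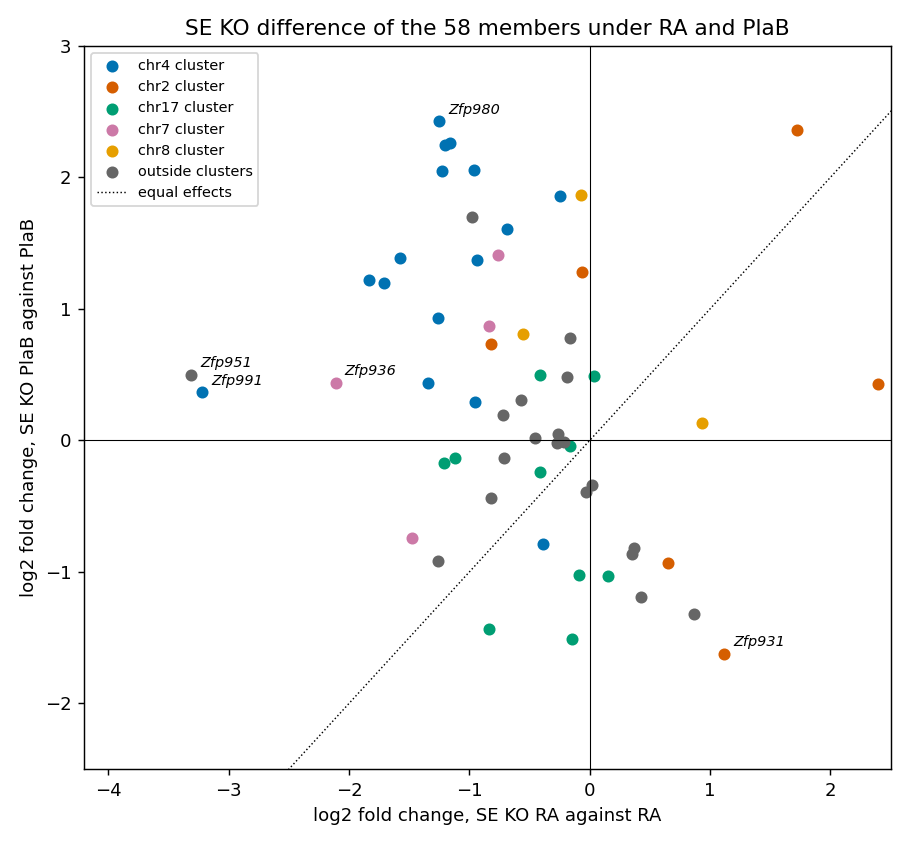
Log2 difference of each tested gene between SE KO and the line with the super-enhancer, in RA on the horizontal axis and in PlaB on the vertical axis, coloured by cluster. Most chromosome 4 genes lie in the part of the plot that is lower in RA and higher in PlaB, and Zfp931 lies opposite them.

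In Dux OE cells the deletion gave 4 called of 58, 3 higher and 1 lower, beside 6.3% of all genes, 2.46% higher and 3.84% lower. The members' median log2 difference was 0.48 against -0.02 over all genes, and 0.27 without replicate 1 of SE KO Dux OE and 0.66 without replicate 2. Zfp976 on chromosome 7 had 13 and 10.8 CPM in Dux OE and 25.0 and 22.9 in SE KO Dux OE (1.01, SE 0.26, edgeR adjusted p = 0.00565), and 0.95 without replicate 1 of SE KO Dux OE, which is not called. Zfp965 was the 1 called lower, with 0.291 and 1.15 CPM in Dux OE and 0.106 and 0.0981 with the deletion. This call was lost without replicate 2 of Dux OE or either library of SE KO Dux OE, and DESeq2 and the fit of the 2 groups alone gave Zfp965 no adjusted p. Without replicate 2 of SE KO Dux OE 8 genes were called, without its replicate 1, 2, and without replicate 2 of Dux OE, 1.

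A list of 39 genes held the partners of KRAB domains and some further KRAB zinc finger genes, and 38 of them were tested. In PlaB 2 rose and 23 fell against DMSO, beside the 58.9% of all genes called. Trim28 had 1500 and 1510 CPM in DMSO and 208 and 203 in PlaB, a log2 difference of -2.87 (SE 0.11, edgeR adjusted p = 6.94e-19), and 1350 and 1360 in Dux KD PlaB. Against PlaB, Dux KD PlaB had 21 higher and 5 lower, beside 54.9% of all genes, and SE KO PlaB 20 higher and 0 lower, beside 52%. Setdb1, at -0.37 in PlaB against DMSO, stayed under the fold threshold. In RA 1 rose and 9 fell, beside 31% of all genes, and Trim28 had 932 and 940 CPM. Dux KD RA had 5 higher and 0 lower than RA, beside 10.9%. They included Rex2 and Zfp600, themselves KRAB zinc finger genes, and Smarcad1, a chromatin remodeller known to work with TRIM28, which had 84.3 and 77.0 CPM in RA and 200 and 203 in Dux KD RA (1.32, SE 0.11). SE KO RA, beside 17.6%, had 0 higher and 5 lower, Zfp57, Zfp600, Zfp809, Zfp819 and Rex2, which are all KRAB zinc finger genes. Rex2 and Zfp600, called in both comparisons, share sequence with members of the chromosome 4 cluster. Of the windows of Zfp980, 39.2% occurred in Rex2, and of those of Zfp979, 10.8% in Zfp600. Their reads may therefore not be separate from those of members. With Zscan4 induced 2 rose and 0 fell, beside 11.6%, and with Dux induced 1 rose and 2 fell, beside 9.51%. In DuxR70A OE 0 rose and 3 fell against ESC, beside 16.9%. The 3 were Mbd3, Zfp819 and Trim28, the last at -1.17 (SE 0.1, edgeR adjusted p = 5.56e-10).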

How the data were processed

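RNA was sequenced from poly(A)-selected libraries (NEBNext Ultra II) of 26 samples. The deposited values are raw counts per gene made by the authors, and their processing notes name FastQC, Trimmomatic, STAR, featureCounts, DESeq2 and mm10 without versions. Strand setting and handling of multiply mapped reads are not given in the sources used here.

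The counts were analysed with edgeR 4.0.16 in R 4.3.3, in 1 quasi-likelihood model with a mean for each of the 13 groups, after filterByExpr and TMM scaling, with a prior count of 0.125. The p-values were Benjamini-Hochberg adjusted over 20953 genes. The code was tested on simulated data, where genes of low count were recovered less often. The bar for recovery was lowered after a first outcome was seen. Sequence features came from GENCODE M21 transcripts and promoters from RefSeq. Pairs sharing a replicate number did not deviate together, so no pairing was used.

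Members and lists were chosen with earlier results of these data known. Named were, per comparison, up to 3 called members with the largest rise and 3 with the largest fall and no overlap between libraries, the 5 highest per length, the 5 called most often, the largest by counts and by fold in each cluster of 4 or more, and Zfp932, Zfp961 and Zfp989. Zfp982, Zfp985, Zfp933, Zfp977, Zfp942, Zfp943 and others outside this rule were named after their values were seen. Alternatives were DESeq2 1.42.0, RLE and library-size scaling, no filter, the other control, the 2 groups alone, adjusted p alone, a replicate block and leaving out each library.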

Additional observations from a re-analysis of the deposited data

Results flagged for a closer look

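In both contrasts between treatments the share of members called was below or near that of all genes. The effect of Dux knockdown was called different in PlaB and RA for 21 of the 58 genes tested, or 36.2%, beside 52.2% of all genes. That of the super-enhancer deletion was called different for 32, or 55.2%, beside 49% of all genes and 51.5% of the other Zfp genes. Both were flagged because the interaction itself was tested with edgeR.

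Of the single genes, Zfp977 had the largest called negative difference for the knockdown, -2.56 (SE 0.33, edgeR adjusted p = 1.18e-07), and Zfp953 the largest positive one, 1.57 (SE 0.28, edgeR adjusted p = 1.75e-05). With Dux knocked down Zfp953 had 9.37 and 9.68 CPM under PlaB, from 2.61 and 2.85, and 6.66 and 7.18 under RA, from 6.43 and 5.4. For the deletion the largest differences were those of Zfp931, -2.74 (SE 0.27, edgeR adjusted p = 7.45e-10), and Zfp951, 3.82 (SE 0.35, edgeR adjusted p = 1.72e-10). The median share of the PlaB response was 0.0862 in the knockdown libraries of that label and 0.223 in the deletion libraries. Groups without PlaB, DMSO aside, ran from 0.0589 to 0.202. The part of these shares in the differences was not tested.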

How the results depend on the processing

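Counts of called members in each of the 13 comparisons and both treatment contrasts were recomputed. Of their alternatives other than leaving out a library, 88 stayed within 1.5 times and 21 did not. By adjusted p alone the counts were 34 for PlaB, 32 for RA, 33 for Zscan4 OE, 11 for Dux OE, 24 for DuxR70A OE against ESC, 19 against Dux OE, 32, 33 and 12 for Dux KD in PlaB, RA and Zscan4 OE, 37, 35 and 23 for SE KO in PlaB, RA and Dux OE, and 26 for DMSO against ESC. With the other control they were 10 for RA, 11 for Zscan4 OE, 10 for Dux OE and 3 for DuxR70A OE. Library size alone gave 10 for DuxR70A OE against Dux OE and 2 for Dux KD Zscan4 OE, and no filter gave 2 for the latter and 8 for SE KO Dux OE.

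Leaving out 1 library gave 19 to 21 for PlaB, 14 to 17 for RA, 14 to 20 for Zscan4 OE, 1 to 2 for Dux OE, 5 to 8 and 4 to 6 for DuxR70A OE against ESC and Dux OE, 15 to 16, 13 to 19 and 0 to 5 for Dux KD in PlaB, RA and Zscan4 OE, 21 to 23, 15 to 19 and 1 to 8 for SE KO in PlaB, RA and Dux OE, 7 to 10 for DMSO, and 19 to 23 and 31 to 35 for the treatment contrasts of Dux KD and SE KO.

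With the replicate block, the counts were 20 for PlaB, 16 for RA, 3 for SE KO Dux OE and 9 for DMSO against ESC, and it moved no count by over 1.5 times. Correlations of same-numbered deviations ran from -0.0473 to 0.0237.

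Of the fold changes of the named genes under alternatives that kept all libraries, 710 kept direction and side of the threshold, 58 kept the direction but not the call, and 6 reversed, all with the other control. They were Zfp937 at -0.02 and Zfp951 at 1.26 for DuxR70A OE, Zfp937 at 0.03, Zfp948 at 0.88 and Zfp951 at -0.75 for RA, and Zfp948 at -0.12 for Zscan4 OE. Leaving the filter out called Zfp968 for Dux KD PlaB on 1 and 5 counts against 0 in both PlaB libraries. The cause of these changes was not tested. Depth limits the low genes, since 3 counts are 0.0761 to 0.208 CPM.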
